A study of Mus musculus with 3 samples.

Results

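Cells with transcripts of G2 and mitosis were picked out of 3 droplet scRNA-seq libraries of sorted thymic iNKT cells. Not all of them were iNKT cells by their other genes, as described below, and most also held replication transcripts. These G2/M-phase cells were chosen by their own counts: at least 4 of 7 mitosis genes (Ccnb1, Ccnb2, Cdc20, Cenpa, Cenpf, Ube2c and Hmmr) had 1 or more UMIs, the molecular barcodes that each count 1 captured transcript, and Siglech, a gene of plasmacytoid dendritic cells, had none. Cells entered when they expressed more than 200 but fewer than 6000 genes and when mitochondrial UMIs were less than 10%, and 806 of 15961 such cells met the rule. C57BL/6 mice without bone marrow transplantation (BMT) gave 413 of 4434 cells, BMT mice with BM only 134 of 5970, and BMT mice with BM + Spl 259 of 5557.

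The study followed how iNKT cells are rebuilt in the thymus after haploidentical BMT with and without graft-versus-host disease (GvHD). The BMT recipients, F1 (C57BL/6 x BALB/c) mice given lethal irradiation, all received C57BL/6 bone marrow depleted of T cells. BM only recipients, labelled non-GVHD, received nothing else, whereas BM + Spl recipients, labelled GVHD, also received splenic cells of C57BL/6 mice. Both were 16 weeks old at 9 weeks after BMT, and the C57BL/6 mice were 7 weeks old by their label. Thymocytes were depleted of CD8+ cells and sorted for TCRβ and for binding of the CD1d tetramer, the reagent recognised by the invariant receptor, and against CD24 and NK1.1. The sort did not separate donor from host cells, and each library pooled the cells of several mice. With 1 library per condition no value had a replicate check, no test between conditions was run, and ranges in parentheses are 95% intervals that cover counting error only.

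iNKT cells carry an invariant T cell receptor alpha chain paired with a limited set of beta chains and depend on the transcription factor PLZF, encoded by Zbtb16. After selection in the thymus they divide and give rise to NKT1 cells, which use T-bet (Tbx21), NKT2 cells, which keep PLZF and GATA3 high, and NKT17 cells, which are poised to make IL-17. In every dividing cell, cyclin B with the kinase Cdk1 drives entry into mitosis, the kinetochore holds chromosomes to the spindle, and the anaphase-promoting complex then marks cyclin B and securin for destruction.

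G2/M-phase cells made up 9.31% (8.47 to 10.2) of C57BL/6 cells. Their share was 2.24% (1.88 to 2.65) in BM only and 4.66% (4.12 to 5.25) in BM + Spl. The share in BM + Spl was 2.08 times that in BM only (1.69 to 2.55), beyond counting error. A deeper cell meets the rule more easily, so each cell was also thinned to 2700 UMIs before the rule was applied, which left out 15, 959 and 568 shallower cells of C57BL/6, BM only and BM + Spl. The thinned shares were 2.65%, 0.778% and 1.84%, and BM + Spl stood at 2.37 times BM only (1.63 to 3.44). The order of the libraries was therefore the same with and without thinning.

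**Figure D1:**
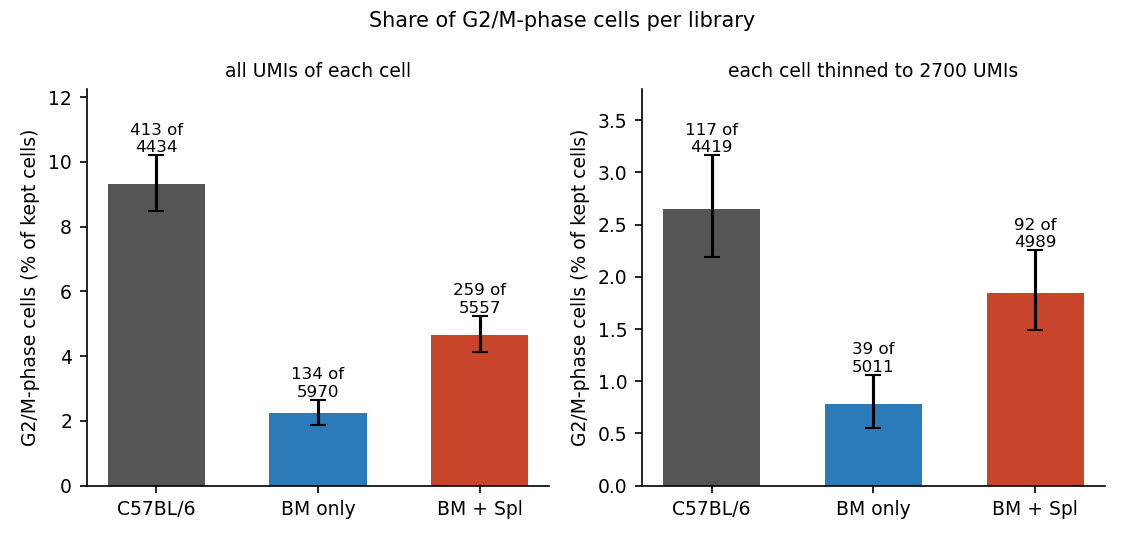
Share of G2/M-phase cells in each library, in percent of kept cells, from all UMIs of each cell (left) and after thinning each cell to 2700 UMIs (right); bars give the share and whiskers the 95% Clopper-Pearson interval of counting. In both panels BM only is lowest and C57BL/6 highest, and the intervals of BM only (1.88 to 2.65% on the left) and BM + Spl (4.12 to 5.25%) do not overlap.

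The C57BL/6 library is set beside the others as a value only. It was processed with another version of Cell Ranger, its kept cells held a median of 12086.5 UMIs against 4740 in BM only and 6495 in BM + Spl, and its G2/M-phase cells held a median of 5.8% mitochondrial UMIs against 0.502% and 0.452%. Age, BMT and library preparation cannot be told apart for its differences from the BMT libraries. Its G2/M-phase share was 4.15 times that of BM only (3.43 to 5.02) as deposited and 3.4 times (2.37 to 4.88) after thinning.

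Cells of the preceding phase were defined in the same manner, from at least 4 of 7 replication genes (Mcm5, Mcm6, Pcna, Tyms, Rrm1, Gins2 and Uhrf1) in cells that were not G2/M-phase cells, and are called S-range cells. They made up 12.0% of C57BL/6 cells, 6.75% in BM only and 11.1% in BM + Spl, a BM + Spl share 1.65 times that of BM only (1.46 to 1.86), and in thinned cells 2.78%, 2.69% and 4.01%. For every 100 S-range cells there were 77.5 G2/M-phase cells in C57BL/6, 33.2 in BM only and 41.8 in BM + Spl. All other kept cells, 3488, 5433 and 4679 in the same order, are called non-cycling cells below. Siglech was not used to filter them, and they include cells of other types. Of these cells 1, 301 and 399 had no UMI of a CD3 or T cell receptor constant gene. The part of such cells in the values of non-cycling cells was not tested. G2/M-phase cells held more UMIs, with a median of 21041, 14428.5 and 14734 UMIs against 10158.5, 4510 and 5534 in non-cycling cells, a ratio of 2.07, 3.2 and 2.66.

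The genes of the rule differed in how widely G2/M-phase cells held them, and these values chose the cells and are description only. Ccnb2, the B-type cyclin of the Golgi and cytoplasm, had a UMI in 96.1% of G2/M-phase cells in C57BL/6, 90.3% in BM only and 92.7% in BM + Spl. Its relative Ccnb1, whose protein moves into the nucleus at the start of mitosis, was found in 71.9%, 56% and 64.5%. Cenpa, the histone variant that marks centromeres, was found in 98.3%, 95.5% and 95%, but also in 28%, 9.77% and 16.1% of non-cycling cells, while each of the other 6 genes was found in at most 5.13% of them. Cenpf, a kinetochore protein, was found in 78%, 73.1% and 74.1%, and Hmmr, a spindle and hyaluronan-binding protein, in 62.7%, 63.4% and 64.9%. Cdc20, the activator of the anaphase-promoting complex, was found in 79.9%, 79.9% and 78.4%, and Ube2c, the ubiquitin-conjugating enzyme that works with that complex, in 87.7%, 84.3% and 88.8%.

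The threshold cut through a continuous range. Cells with exactly 3 of the genes, just outside, numbered 148, 53 and 87 and held a median of 7, 5 and 5 UMIs of the 7 genes together. Cells with exactly 4, just inside, numbered 86, 40 and 62 and held 13, 9 and 11. Mki67, which marks cycling cells and was not in the rule, had a UMI in 67.6%, 62.3% and 51.7% of the cells just outside and in 79.1%, 75% and 75.8% of those just inside. Siglech kept out another 2 BM only and 9 BM + Spl cells that met the gene count, and 9 of C57BL/6 failed the limits on genes or mitochondrial UMIs.

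What the 7 genes share beyond these counts was looked for in their promoters, since the rule did not use sequence. Of these promoters 5 are shown, to let the spacing and strand of the shared letters be compared, in RefSeq sequence of GRCm38.p6, the build also called mm10, from 120 bases before to 30 bases after the annotated start, 5′ to 3′ on the strand of the gene. Capitals mark CCAAT on either strand (ATTGG when reversed), the letters bound by NF-Y, and TTTGAA on either strand (TTCAAA when reversed) or TTTAAA, letters of the cell cycle genes homology region (CHR), the element that recruits the MuvB complexes of late cell cycle genes. The windows are chr9:70421525-70421674 on the minus strand for Ccnb2, chr4:118437314-118437463 on the minus strand for Cdc20, chr5:30666766-30666915 on the plus strand for Cenpa, chr2:164769809-164769958 on the plus strand for Ube2c and chr11:40733408-40733557 on the minus strand for Hmmr.
Ccnb2: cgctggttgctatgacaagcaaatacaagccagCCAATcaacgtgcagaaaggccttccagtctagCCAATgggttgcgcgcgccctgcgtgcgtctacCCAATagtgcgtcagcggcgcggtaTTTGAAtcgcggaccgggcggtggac
Cdc20: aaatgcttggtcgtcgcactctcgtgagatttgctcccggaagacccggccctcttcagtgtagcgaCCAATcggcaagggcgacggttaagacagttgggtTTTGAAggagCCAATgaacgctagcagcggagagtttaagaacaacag
Cenpa: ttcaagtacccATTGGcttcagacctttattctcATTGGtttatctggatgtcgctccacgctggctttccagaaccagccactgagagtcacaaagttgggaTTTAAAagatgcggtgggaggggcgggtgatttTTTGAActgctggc
Ube2c: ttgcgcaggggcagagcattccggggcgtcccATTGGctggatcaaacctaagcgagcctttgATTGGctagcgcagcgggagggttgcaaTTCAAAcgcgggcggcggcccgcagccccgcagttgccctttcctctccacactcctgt
Hmmr: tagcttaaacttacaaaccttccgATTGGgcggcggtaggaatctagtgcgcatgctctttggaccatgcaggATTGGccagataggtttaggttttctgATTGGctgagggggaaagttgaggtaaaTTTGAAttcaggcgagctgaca
In Ccnb2 the starts of neighbouring CCAAT matches lay 33 and 33 bases apart, in Ube2c 31, in Cenpa 23, in Cdc20 45 and in Hmmr 49 and 27. All 7 genes of the rule held both motifs in this window, and 6 of them held at least 2 CCAAT matches and a CHR match. Among the promoters of 27025 genes in the same window, 27% held CCAAT, 15.6% the CHR letters, 3.92% both and 0.825% at least 2 CCAAT matches with a CHR match. Of 81 genes in the lists of mitosis described next, 65 had a promoter in the table, and 44.6% of these held both motifs. No match overlapped another in the 7 genes, and a match is a description of letters, not of a bound site.

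Nearly all mitotic genes that the rule left out were higher in G2/M-phase cells. Expression is given as CPM, the UMIs of a gene summed over the cells of a group and scaled to a group total of 1000000 UMIs, and a gene is counted as higher or lower when its ratio passed 1.5-fold among genes expected to reach 10 UMIs in the G2/M-phase cells. By that count 16.9% of 10778 genes were higher and 19.3% lower in the G2/M-phase cells of C57BL/6, 14.0% and 23.8% of 9389 genes in BM only, and 13.3% and 24.6% of 10688 genes in BM + Spl. Because the cells were chosen for mitotic transcripts, these ratios against non-cycling cells describe the cells, and nothing is read from them.

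Of 12 regulators of Cdk1, all those with enough UMIs were higher, 12 of 12 in C57BL/6, 7 of 7 in BM only and 11 of 11 in BM + Spl. Ccna2, cyclin A2, stood at 91.6, 156.2 and 198.1 CPM in G2/M-phase cells against 0.262, 0.54 and 0.439 CPM in non-cycling cells. It had the largest ratio in the lowest of the 3 libraries among genes with at least 200 UMIs in each, followed by Cdk1 itself and by Nusap1 and Tpx2, which organise spindle microtubules. Mitotic kinases were higher in 10 of 10, 4 of 4 and 10 of 10, and Plk1, which acts from mitotic entry to cytokinesis, reached 51.8, 72.3 and 90.8 CPM against at most 0.504 CPM in non-cycling cells. Kinetochore genes were higher in 14 of 14, 7 of 7 and 14 of 14, and spindle and kinesin genes in 25 of 25, 16 of 16 and 25 of 25.

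Birc5, survivin, a subunit of the chromosomal passenger complex, stood at 327.6, 478.2 and 497.5 CPM in G2/M-phase cells of C57BL/6, BM only and BM + Spl. Its partner Cdca8, borealin, stood at 224.4, 228.1 and 242.9 CPM. Genes that compact chromosomes were higher in 11 of 11, 8 of 8 and 11 of 11. Among them Top2a, the topoisomerase that untangles sister DNA, was found in 64.4%, 59% and 69.9% of G2/M-phase cells, and Mki67 in 91.3%, 80.6% and 86.1% against 5.91%, 2.45% and 3.7% of non-cycling cells. In the list of securin and parts and inhibitors of the anaphase-promoting complex, 7 of 8, 6 of 7 and 7 of 8 were higher, and the remaining gene was Bub3 in C57BL/6 and Cdc27 in both BMT libraries.

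Many G2/M-phase cells still held replication transcripts. At least 4 of the 7 S-range genes had a UMI in 256 (62%) of the C57BL/6, 89 (66.4%) of the BM only and 178 (68.7%) of the BM + Spl G2/M-phase cells, and 11, 7 and 11 cells held none of them. Of a wider list of replication genes 38 of 39, 31 of 32 and 37 of 38 were higher than in non-cycling cells. Hist1h1b, a linker histone made during replication, was found in 38.7%, 60.4% and 68.7%. Brakes on division were mixed: among genes of Cdk inhibition and quiescence 6 of 11, 7 of 12 and 6 of 12 were lower, and Btg1, an antiproliferative factor of resting lymphocytes, stood at 133.3, 152.6 and 131.9 CPM against 650.7, 804.2 and 602.8 CPM. In the same list Cdkn2c, the Cdk4 and Cdk6 inhibitor p18, was higher, with 43.7, 56.6 and 56.8 CPM against 13.6, 11 and 13.4 CPM.

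Growth genes were higher in part. Of 19 genes of the respiratory chain 12, 11 and 5 were past 1.5-fold higher in G2/M-phase cells of C57BL/6, BM only and BM + Spl and none was lower, with a median log2 ratio of 0.72, 0.65 and 0.43 beside −0.03, −0.10 and −0.13 over all genes. Interferon-response genes were lower in 15, 13 and 11 of 18 and higher in none. For Ifit1, an RNA-binding interferon target, the levels were 10.1, 3.15 and 10.3 CPM against 86.2, 29.5 and 35.6 CPM.

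The dividing cells were checked for the T cell and iNKT identity of the sort. Cd3e, a chain of the T cell receptor complex, had a UMI in 98.3%, 94% and 98.5% of the G2/M-phase cells, and a UMI of any CD3 or T cell receptor constant gene was present in 100%, 97% and 98.5%. Zbtb16 was found in 361 (87.4%) of the C57BL/6 cells, 71 (53.0%, 44.2 to 61.7) of the BM only and 157 (60.6%, 54.4 to 66.6) of the BM + Spl cells. In B-like cells, which held at least 2 B cell genes such as Cd79a, Cd79b and Ms4a1 without Cd3e, should lack it and held a median of 6239 and 7881 UMIs, it was found in 0 of 73 and 1 of 48 cells of BM only and BM + Spl. Of the genes of the sort, Cd24a stood at 2.77, 4.72 and 1.72 CPM in G2/M-phase cells and Klrb1c, which encodes NK1.1, at 8.52, 10.5 and 2.95 CPM, while Cd8a was found in 0.726%, 2.24% and 3.86% and Cd8b1, which encodes the other CD8 chain, in 3.39%, 5.22% and 9.27% of cells.

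The label of iNKT cells did not hold for all G2/M-phase cells of the BMT libraries. Foxp3, the factor that defines regulatory T cells, was found in 0 of 413 C57BL/6 cells, with an upper Clopper-Pearson bound of 0.889%, but in 30 (22.4%, 15.6 to 30.4) of the BM only and 52 (20.1%, 15.4 to 25.5) of the BM + Spl cells. The share in B-like cells was 1 of 73 in BM only and 0 of 48 in BM + Spl, and C57BL/6 gave 0 such cells. The bound for C57BL/6 limits the share of cells with a Foxp3 UMI, not of cells that express the gene. Foxp3 and Zbtb16 were found in the same cell in 1 of the BM only and 4 of the BM + Spl cells, and neither was found in 52, 34 and 54 cells of C57BL/6, BM only and BM + Spl. The 2 genes thus marked nearly separate sets of dividing cells after BMT, and the cells with Foxp3 are named here by that gene.

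Tbx21, the factor of NKT1 cells, was found in 20.6%, 17.2% and 15.1% of G2/M-phase cells, against 4 of 73 and 4 of 48 B-like cells in BM only and BM + Spl. In the deepest library, 79 of the 85 cells with Tbx21 also held Zbtb16, against 13 of 23 in BM only and 22 of 39 in BM + Spl. Foxp3 was found in 1 of these 23 BM only and 12 of these 39 BM + Spl cells, so Tbx21 alone did not mark NKT1 cells. Cd4 was found in 55.4%, 41% and 59.1%, and in 0 of 73 and 1 of 48 B-like cells.

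Most NKT1 genes were lower in G2/M-phase cells than in non-cycling cells, and NKT2 genes were mixed. Of 15 NKT1 genes 14, 14 and 11 were past 1.5-fold lower than in non-cycling cells of C57BL/6, BM only and BM + Spl, with median log2 ratios of −2.37, −1.72 and −1.43. Ccl5, a chemokine of cytotoxic lymphocytes, stood at 6.53, 101.2 and 61.8 CPM against 212.9, 727 and 362.3 CPM, and Nkg7, a protein of cytotoxic granules, at 40.7, 150.5 and 92.3 CPM against 232.5, 754.8 and 248.5 CPM. Tbx21 stood at 15.6, 19.9 and 14.8 CPM against 27.8, 65.7 and 23.3 CPM. In BM only the gene that was not lower was Gzma, granzyme A, and in BM + Spl the 4 such genes were Gzma, Gzmb, Il2rb and Txk, of which Gzma was past 1.5-fold higher. Gzma stood at 9.74, 176.7 and 18.9 CPM against 55.4, 159.9 and 12.3 CPM, in few of the dividing cells (7.02%, 9.7% and 6.56%).

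Of 15 NKT2 genes 4, 1 and 4 were lower and 1, 4 and 1 higher, where 19.3%, 23.8% and 24.6% of all genes were lower and 16.9%, 14.0% and 13.3% higher. Their median log2 ratios were −0.31, 0.13 and −0.22. Zbtb16 stood at 218.6, 156.8 and 159 CPM in G2/M-phase cells against 322.4, 136 and 159.9 CPM. Gata3, the factor of type 2 cytokine genes, stood at 190.5, 99.6 and 92.5 CPM against 174.4, 91.3 and 99.3 CPM. Id3, an inhibitor of E proteins induced by receptor signals, was above non-cycling cells in all 3 libraries, at 491.3, 489.2 and 497.3 CPM against 353.7, 185 and 240.8 CPM. Il13, a type 2 cytokine, was also above them, at 49.1, 43.0 and 26.6 CPM against 20.7, 12 and 20.4 CPM, whereas Il4 was not, at 27.8, 36.2 and 52.7 CPM against 34.4, 42.7 and 70.1 CPM. NKT17 genes were lower in 6 of 13, 12 of 14 and 8 of 13, and none was higher.

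**Figure D2:**
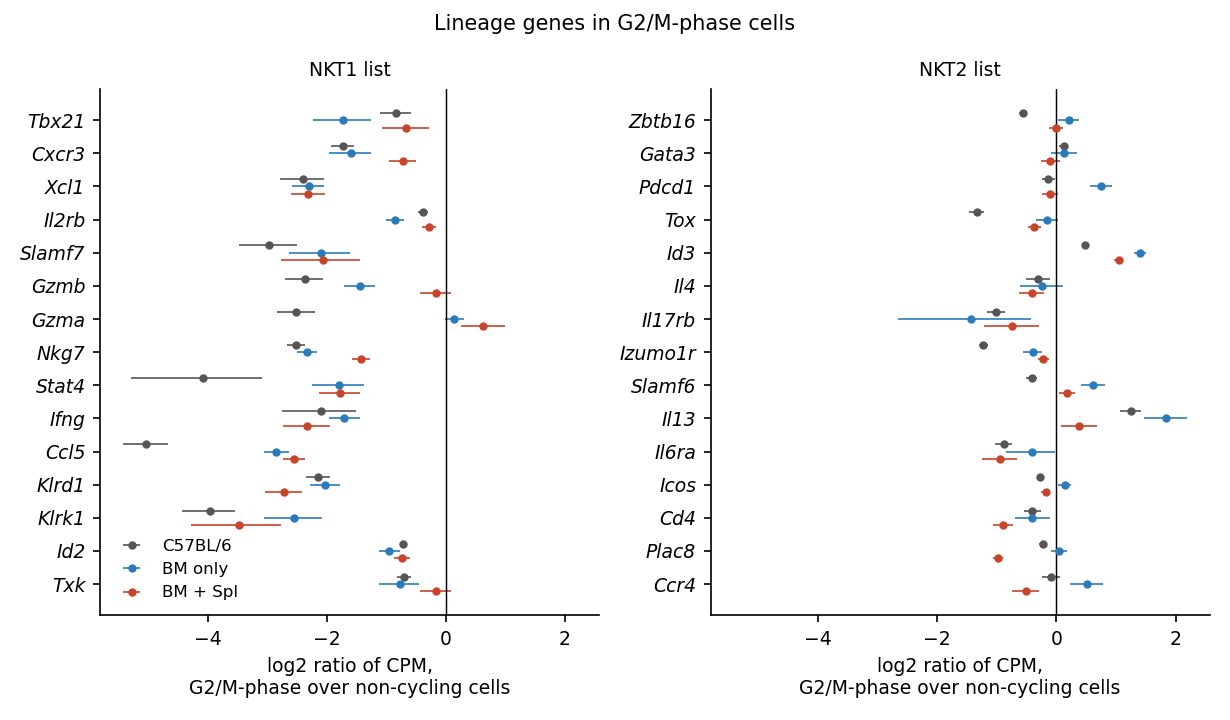
Log2 ratio of CPM in G2/M-phase over non-cycling cells (horizontal axis) for the 15 genes of the NKT1 list (left) and of the NKT2 list (right) in each library; points give the ratio and lines its 95% counting interval, and 0 marks equal levels. NKT1 genes lie mostly left of 0 (medians −2.37, −1.72 and −1.43), whereas NKT2 genes lie around it and Id3 lies to its right in all 3 libraries.

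Cell by cell, the lists were compared by which of them led. Each cell thinned to 2700 UMIs was assigned the list, among those of NKT1, NKT2, NKT17 and regulatory T cells, of which it held most UMIs, with at least 3 UMIs and no tie. This is a range of a count and not a cell type, and among G2/M-phase cells 39, 9 and 11 of those led by NKT2 genes were within 1 UMI of another list or at the minimum. The NKT2 list led in 72.6% (68 to 76.8) of the C57BL/6, 54.2% (45.3 to 62.9) of the BM only and 65.6% (59.5 to 71.4) of the BM + Spl G2/M-phase cells. In non-cycling cells it led in 57.2%, 23.7% and 49.8%, and in S-range cells in 77.3%, 50.4% and 61.8%. The NKT1 list led in 11.9%, 16% and 8.49% of G2/M-phase cells against 35.4%, 52.4% and 20.1% of non-cycling cells. In S-range cells it led in 11.3%, 19.7% and 8.41%, so these leads were not particular to G2/M phase. The NKT2 list held a median of 6, 5 and 6 UMIs per thinned G2/M-phase cell against 7, 3 and 6 in non-cycling cells. The NKT1 list held 2, 1 and 1 against 4, 8 and 2. In C57BL/6 and BM + Spl the NKT2 list thus led more often without a higher median of its own, beside a lower NKT1 median. The list of regulatory T cells led in 20.6% of BM only and 18.9% of BM + Spl cells, and in 3.64% of C57BL/6 cells, where Foxp3 was at 0 and Capg, an actin-capping protein, was the most abundant gene of the list. Capg also exceeded Foxp3 after BMT, with 809 against 121 UMIs in BM only and 1339 against 221 in BM + Spl. It was found in 117 and 228 of their G2/M-phase cells.

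Turned around, a cell led by NKT2 genes was more often in G2/M phase than a cell led by NKT1 genes. In C57BL/6 299 of 2699 cells led by NKT2 genes were G2/M-phase cells (11.1%, 9.92 to 12.3) and 49 of 1339 led by NKT1 genes (3.66%, 2.72 to 4.81), a 3.03-fold difference (2.25 to 4.07). The 53 cells led by the regulatory T cell list there, which lacked Foxp3 in G2/M phase, held 15 (28.3%, 16.8 to 42.3), the 87 led by NKT17 genes 11 (12.6%, 6.48 to 21.5) and the 241 with no leading list 38 (15.8%, 11.4 to 21). In BM only the counts were 71 of 1336 (5.31%, 4.17 to 6.66) and 21 of 2449 (0.857%, 0.532 to 1.31), a 6.2-fold difference (3.83 to 10). In BM + Spl they were 170 of 2598 (6.54%, 5.62 to 7.56) and 22 of 900 (2.44%, 1.54 to 3.68), a 2.68-fold difference (1.73 to 4.15). Cells led by NKT2 genes were also deeper, with medians of 14459, 8343 and 8832.5 UMIs against 6747, 4615 and 4822, and with the rule applied to thinned cells the shares were 2.96% against 1.34%, 1.27% against 0.367% and 2.35% against 1%. S-range shares had the same order, at 15.2%, 15.1% and 14.7% of cells led by NKT2 genes against 4.48%, 3.23% and 5.78% of those led by NKT1 genes. Whether the leading list of a cell changes while it divides was not tested.

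**Figure D3:**
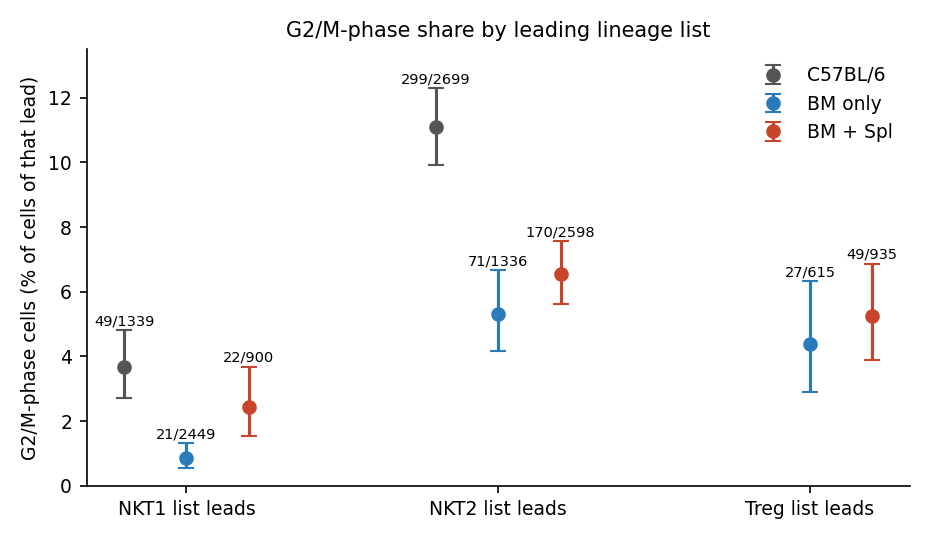
Share of G2/M-phase cells, in percent, among the cells led by the NKT1, NKT2 or regulatory T cell (Treg) list in each library; points give the share, whiskers its 95% Clopper-Pearson interval and fractions the counts, and the Treg list is shown for the BMT libraries. In every library the cells led by NKT2 genes lie above those led by NKT1 genes, and between BM only and BM + Spl the intervals separate for the NKT1 list (0.532 to 1.31% and 1.54 to 3.68%) when all UMIs are used, as plotted, but overlap on thinned cells (0.168 to 0.696% and 0.458 to 1.89%).

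Between the BMT libraries, the higher G2/M-phase share of BM + Spl went with another make-up of the cells. The make-up was read from the leading lists of the same cells, and whether it accounts for the higher share was not tested. Within cells led by NKT1 genes BM + Spl stood at 2.85 times BM only (1.58 to 5.16). Within cells led by NKT2 genes it stood at 1.23 times (0.941 to 1.61), and within those led by the regulatory T cell list at 1.19 times (0.755 to 1.89), both within counting error. On thinned cells these values were 2.72 times (1.08 to 6.83) for the NKT1 list, 1.85 times (1.08 to 3.15) for the NKT2 list, now beyond counting error, and 0.837 times (0.383 to 1.83) for the regulatory T cell list, on far fewer G2/M-phase cells. With the BM only shares weighted to the make-up of BM + Spl, the BM only value went from 2.61% to 4.04%, and BM + Spl, at 5.19% of the same thinned cells, stood at 1.28 times (1.04 to 1.59) in place of 1.99 times (1.62 to 2.44). In cells with a V beta segment of iNKT cells alone, described next, the same step took the difference from 2.78 times (2.14 to 3.62) to 1.41 times (1.07 to 1.85). With the rule on thinned cells more of the difference was left at equal make-up, 1.64 times (1.11 to 2.44) in place of 2.37 times over all cells and 2.07 times (1.17 to 3.66) in place of 3.79 times in those with an iNKT segment.

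V beta segments gave a measure of receptor identity that the rule did not use. A cell was assigned the segment that held at least 80% of its V beta UMIs, and Trbv1, Trbv13-1, Trbv13-3, Trbv29 and Trbv13-2 with Trbv12-2, counted together, were taken as those of iNKT cells. A segment was assigned to 122 of the C57BL/6 G2/M-phase cells, 29.5% of them, and to 110 (82.1%) of the BM only and 215 (83%) of the BM + Spl cells. In C57BL/6 100 of the 122 assignments rested on 1 UMI, against 1 of 110 and 2 of 215 after BMT, where assigned cells held a median of 19 and 21 V beta UMIs, so its values are less certain than their intervals. The study names kits that read either end of transcripts without saying which library used which. An iNKT segment was found in 112 of the 122 (91.8%, 85.4 to 96), 80 of the 110 (72.7%, 63.4 to 80.8) and 165 of the 215 (76.7%, 70.5 to 82.2). Trbv13-2 or Trbv12-2 was the most frequent, in 45.9%, 40.9% and 33.5%, followed by Trbv29 in 18.9%, 11.8% and 14.4%.

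The G2/M-phase cells of BM + Spl carried iNKT segments more often than non-cycling cells of that library, at 76.7% against 57.6% (55.9 to 59.2), while in BM only the shares were 72.7% and 79.5% (78.3 to 80.7). S-range cells stood at 75.4% (71.4 to 79) in BM + Spl and 80.2% (75.5 to 84.3) in BM only, so the share in BM + Spl was not particular to G2/M phase. Among G2/M-phase cells with Zbtb16 the share was 60 of 62 (96.8%) in BM only and 126 of 133 (94.7%) in BM + Spl. Among those with Foxp3 it was 3 of 24 (12.5%, 2.66 to 32.4) and 15 of 42 (35.7%, 21.6 to 52). Cells with neither gene lay between, at 17 of 24 (70.8%) and 25 of 42 (59.5%). Dividing cells with Foxp3 and an assigned segment thus mostly lacked an iNKT segment in BM only. Most of the 42 in BM + Spl lacked one too, but the interval there reached 52%.

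**Figure D4:**
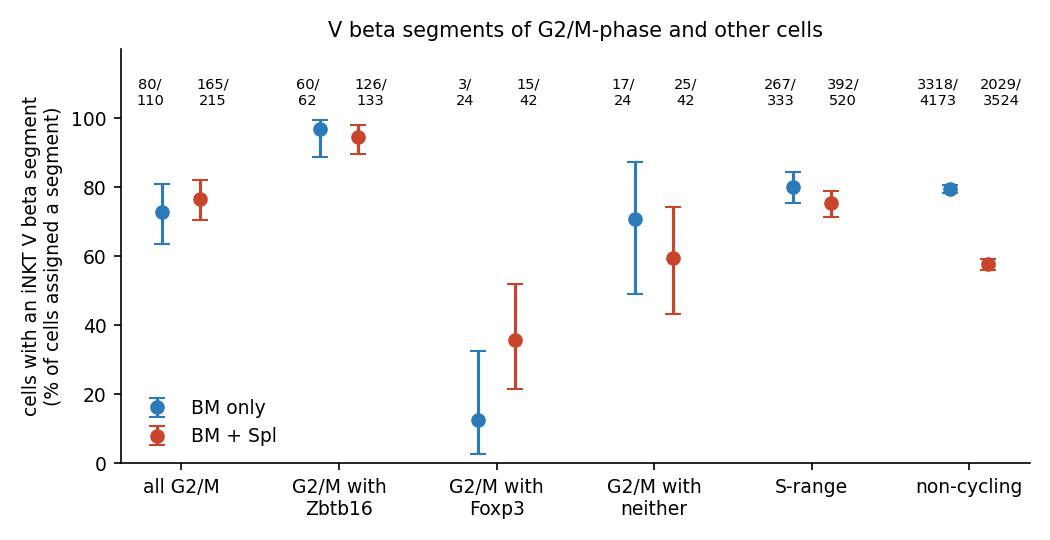
Share of cells with an iNKT V beta segment, in percent of cells assigned a segment, for G2/M-phase cells (all, with Zbtb16, with Foxp3, with neither), S-range cells and non-cycling cells of BM only and BM + Spl; points give the share, whiskers its 95% Clopper-Pearson interval and fractions the counts. Dividing cells with Zbtb16 lie above 94% in both libraries, and those with Foxp3 at 12.5% and 35.7%.

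When cells with an iNKT segment were taken alone, 80 of 3665 BM only cells and 165 of 2586 BM + Spl cells were in G2/M phase, and BM + Spl stood at 2.92 times BM only (2.25 to 3.8). These segments are not specific to iNKT cells, since non-cycling cells with Foxp3 carried one in 30.2% and 27.1% of assigned cells of the 2 libraries.

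Markers of other cell types were also found in G2/M-phase cells. The B cell list summed to 76.3, 526.4 and 723.2 CPM in C57BL/6, BM only and BM + Spl against 107.8, 1762 and 2568 CPM in non-cycling cells, most of it from Cd74, the MHC class II invariant chain, in the BMT libraries and from Ighm in C57BL/6. Cd74 alone stood at 287.8 CPM in 47 BM only cells and 483.3 CPM in 124 BM + Spl cells, with 362 of its 549 and 498 of its 1964 UMIs in 1 cell each. The list of macrophages and dendritic cells summed to 28.3, 293.1 and 83.2 CPM, with C1qa, C1qb, C1qc and Adgre1 at 0 UMIs in all 3 libraries. The list of CD4+CD8+ thymocytes summed to 278.6, 154.7 and 195.9 CPM, led by Ccr9, with Rag1 and Rag2 at 0 UMIs in both BMT libraries, and the erythroid list had at most 1 UMI. The plasmacytoid list summed to 121.4, 193.5 and 235 CPM, led by Bst2, with Siglech, which the rule set to 0, and Cox6a2 and Klk1 at 0 UMIs. In non-cycling cells, where Siglech was not barred, it summed to 162.7, 890.2 and 2064 CPM. At least 10 UMIs of macrophage genes were held by 7, 7 and 5 G2/M-phase cells, and at least 10 UMIs of B cell genes by 3, 4 and 20. The latter were counted over a part of the B cell list, not over the whole list summed above. Their part in the differences below was not tested, other than by the values without such cells.

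Gene by gene, the G2/M-phase cells of BM + Spl and BM only differed past 1.5-fold in a small share of genes. Of 8066 genes with at least 50 UMIs over both pools, 245 (3.04%) were higher and 315 (3.91%) lower in BM + Spl, and for 159 and 235 of these the counting interval excluded equal levels. In non-cycling cells, where more genes reached that number, 940 (7.67%) of 12262 genes were higher and 974 (7.94%) lower. Among G2/M-phase cells the balance turned when an iNKT V beta segment was required, to 328 genes higher and 190 lower. It also turned without cells that held Foxp3, Cd8a, Cd8b1, B cell or macrophage UMIs, to 301 and 195. The pools held 1907320 UMIs in BM only and 4064138 in BM + Spl, so that 1 UMI was worth 0.524 and 0.246 CPM.

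No gene of the mitotic lists with enough UMIs was past 1.5-fold. In those of Cdk1 regulators, mitotic kinases, kinetochore, spindle, chromosome compaction and the anaphase-promoting complex, 0 of 12, 0 of 10, 0 of 14, 0 of 25, 0 of 11 and 0 of 8 genes were past it in either direction. Kinetochore genes had a median log2 ratio of 0.30, with 13 of 14 above 0, and spindle genes one of 0.21, with 23 of 25 above 0, beside 0.00 over all genes. Sgo2a, a protector of sister chromatid cohesion, stood at 36.2 CPM in BM only and 51.4 CPM in BM + Spl, a log2 ratio of 0.51 (0.11 to 0.92). In the rule, which was applied alike to both libraries, the ratios ran from −0.13 for Cdc20 to 0.33 for Cenpf. Both pools were picked by the same demand for mitotic transcripts, so like levels of mitotic genes are largely set by the rule, and nothing is read from them.

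NKT1 genes were mostly lower in the G2/M-phase cells of BM + Spl. Of 15 genes 9 were past 1.5-fold lower and none higher, with a median log2 ratio of −0.71, and in non-cycling cells 13 were lower with a median of −1.14. The median in G2/M-phase cells was −1.51 on 12 genes in those with an iNKT V beta segment. It was −1.87 on 11 genes in those that met the rule after thinning, with all their UMIs counted. Without cells that held Foxp3, Cd8a, Cd8b1, B cell or macrophage UMIs it was −1.92 on 8 genes, so its size against the non-cycling value is not settled. Ifng, the cytokine interferon-γ, went from 66.1 CPM in BM only to 14.3 CPM in BM + Spl, a log2 ratio of −2.21 (−2.69 to −1.75), in 22 and 20 cells. S-range cells went the other way for Ifng, from 41.6 to 58.7 CPM with a log2 ratio of 0.50 (0.27 to 0.73), and for Xcl1, a chemokine, with a log2 ratio of 0.39 (0.24 to 0.54), while over the list 6 of 15 genes were lower in them at a median of −0.48. Klrd1, the CD94 receptor chain, went from 67.6 to 21.7 CPM, a log2 ratio of −1.64 (−2.05 to −1.24), and Klrk1, which encodes NKG2D, from 18.9 to 3.94 CPM, a log2 ratio of −2.26 (−3.21 to −1.37). In G2/M-phase cells Xcl1 went from 59.8 to 27.1 CPM with a log2 ratio of −1.14 (−1.53 to −0.75), although 1 of the 14 BM + Spl cells with it held 64 of its 110 UMIs, and Slamf7, a receptor of cytotoxic cells, had a log2 ratio of −1.79 (−2.65 to −0.96).

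Gzma had the largest difference of the list, 176.7 CPM against 18.9 CPM with a log2 ratio of −3.22, but it rested on few cells, since 1 of the 13 BM only cells with it held 93 of its 337 UMIs. Tbx21 itself stood at 19.9 CPM and 14.8 CPM, a log2 ratio of −0.43 (−1.04 to 0.19) that did not exclude equal levels, while in non-cycling cells its log2 ratio was −1.49. Cxcr3, a chemokine receptor of NKT1 cells, stood at 37.2 CPM and 43.8 CPM, a log2 ratio of 0.24 (−0.17 to 0.65) against −0.64 in non-cycling cells. The difference of either gene between dividing and non-cycling cells was not tested.

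Among the dividing cells 2 of 15 NKT2 genes were past 1.5-fold higher and 1 lower in BM + Spl, where 3.04% of all genes were higher and 3.91% lower. Counting intervals lay above 0 for 6 and below 0 for 2 of the 15, against 521 and 548 of 8066 genes. The median log2 ratio of the list was 0.11, whereas 7 genes were higher and none lower in non-cycling cells at a median of 0.57. In S-range cells 2 genes were higher and none lower at a median of 0.1, so the smaller ratio was not particular to G2/M phase. Zbtb16 stood at 156.8 CPM in BM only and 159 CPM in BM + Spl, a log2 ratio of 0.02 (−0.18 to 0.22). Izumo1r, which encodes folate receptor 4, went from 183 to 301.7 CPM, a log2 ratio of 0.72 (0.55 to 0.90). Il17rb, the receptor chain for IL-25, had 8 UMIs in BM only and 44 in BM + Spl, a log2 ratio of 1.37 (0.27 to 2.67). Il4 went from 36.2 to 52.7 CPM with a log2 ratio of 0.54 (0.14 to 0.95), short of 1.5-fold. Il13, by contrast, was the gene past 1.5-fold lower, from 43.0 to 26.6 CPM with a log2 ratio of −0.69 (−1.12 to −0.26). Its log2 ratio was 0.1 in S-range and 0.76 in non-cycling cells. Plac8, which is abundant in early iNKT cells, had a log2 ratio of 0.15 in G2/M-phase, 0.72 in S-range and 1.18 in non-cycling cells. Of 14 NKT17 genes 5 had at least 50 UMIs, of which 3 were past 1.5-fold lower and none higher in the G2/M-phase cells of BM + Spl, at a median log2 ratio of −0.69.

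Of 15 interferon-response genes 6 were past 1.5-fold higher in the G2/M-phase cells of BM + Spl and none lower, with 9 within 1.5-fold, 2 of these below 0, and a median log2 ratio of 0.53. Ifi27l2a was among the 10 largest ratios of genes higher in BM + Spl with at least 200 UMIs, T cell receptor segments left out. It was found in 124 of 134 and 254 of 259 cells and went from 1113 to 2062 CPM, a log2 ratio of 0.89 (0.82 to 0.96). Irf7, a factor that raises interferon genes, went from 39.9 to 66.4 CPM with a log2 ratio of 0.74 (0.36 to 1.12), and Bst2, tetherin, which plasmacytoid dendritic cells also express, from 103.8 to 180.6 CPM with a log2 ratio of 0.80 (0.57 to 1.03). Usp18, a brake on the interferon receptor, had 9 and 70 UMIs, a log2 ratio of 1.87 (0.86 to 3.06). S-range cells had 7 of 18 genes past 1.5-fold higher and none lower at a median of 0.505, so the rise was not particular to G2/M phase. In non-cycling cells 4 of 18 genes were past 1.5-fold higher at a median of 0.31. Fewer genes of the list had enough UMIs in G2/M-phase cells, so their count and median rest on 15 genes in place of 18. Igtp, an interferon-induced GTPase outside the list, went from 32.5 to 57.8 CPM in G2/M-phase cells.

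Genes that follow T cell receptor signals had 2 of 12 past 1.5-fold higher and none lower, with a median log2 ratio of 0.33. Nr4a1, an immediate target of the receptor, was found in 37 and 99 cells and went from 36.2 to 68.2 CPM, a log2 ratio of 0.91 (0.53 to 1.32), and Egr2, a factor of iNKT precursors, had 8 and 55 UMIs and a log2 ratio of 1.69 (0.61 to 2.97). The log2 ratio for Nr4a1 was −0.0791, on 46 and 87 UMIs, when cells with a Foxp3, Cd8a or Cd8b1 UMI or with UMIs of B cell or macrophage genes were left out. Tnfsf8, the CD30 ligand, was found in 11 BM only and 44 BM + Spl cells and went from 7.34 to 47.2 CPM, a log2 ratio of 2.69 (1.90 to 3.58). Bhlhe40, a factor of activated T cells, went from 45.1 to 83.7 CPM with a log2 ratio of 0.89 (0.55 to 1.25). Aff3 and Gtf2h3, the latter a subunit of transcription factor IIH, had log2 ratios of 0.85 (0.47 to 1.25) and 0.91 (0.40 to 1.45).

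Glycolysis, respiratory chain and Myc-related genes had 0 of 12, 0 of 19 and 0 of 10 members past 1.5-fold. Markers of regulatory T cells had 1 of 8 higher and a median log2 ratio of −0.05, and Foxp3 stood at 63.4 CPM and 54.4 CPM, a log2 ratio of −0.22 (−0.55 to 0.11). The gene past 1.5-fold was Klrg1, a receptor of effector regulatory T cells, found in 3 BM only and 15 BM + Spl cells, with a log2 ratio of 2.57 (1.38 to 4.06). Cd8a was found in 3 and 10 cells, with a log2 ratio of 1.56.

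Immediate-early and heat-shock genes, which are known to be induced while tissue is dissociated, were lower in BM + Spl, with 9 of 12 past 1.5-fold and a median log2 ratio of −0.91 in dividing and −0.87 in non-cycling cells. Hspa1b, an inducible heat-shock protein, was found in 51 BM only and 20 BM + Spl cells and went from 140 to 11.1 CPM, a log2 ratio of −3.66 (−4.15 to −3.20). Hspa1a had a log2 ratio of −4.22 (−5.10 to −3.44), and Fos went from 475 to 205.7 CPM, a log2 ratio of −1.21 (−1.34 to −1.07). These genes moved in the same libraries as the NKT1 and interferon genes above, and their part in those differences was not tested.

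Of the other large differences, Cfap77, a cilia gene, went from 117.4 CPM in BM only to 15.8 CPM in BM + Spl, a log2 ratio of −2.90 (−3.32 to −2.49), found in 49 and 51 cells. Tff1, a trefoil peptide, went from 171.4 to 49.0 CPM with a log2 ratio of −1.81 (−2.07 to −1.55), and Cd7, a T and NK cell surface protein, from 163.6 to 66.7 CPM with a log2 ratio of −1.29 (−1.53 to −1.06). Some differences came from very few cells. Lyz2, a macrophage gene, was found in 4 BM only cells and 1 BM + Spl cell, and Tyrobp, an adaptor of NK and myeloid receptors, in 7 and 4. Immunoglobulin genes came from single cells, with 693 UMIs of Ighv5-4 and 418 of Igkv10-96 in 1 BM + Spl cell, 354 of Jchain in 2 BM + Spl cells and 338 of Igkv12-46 in 1 BM only cell, each at 0 in the G2/M-phase cells of the other BMT library.

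**Figure D5:**
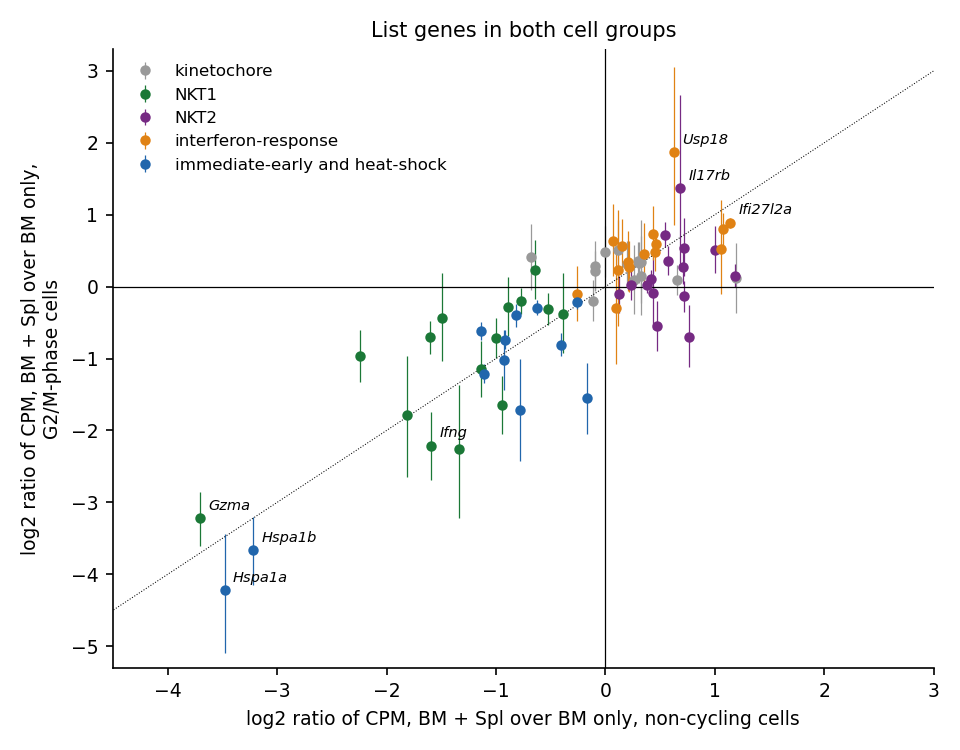
Log2 ratio of CPM in BM + Spl over BM only for genes of 5 lists in G2/M-phase cells (vertical axis, lines give the 95% counting interval) against the same ratio in non-cycling cells (horizontal axis); the dotted line marks equal ratios. Kinetochore genes lie near 0 (median 0.30), NKT1 and immediate-early and heat-shock genes mostly lie in the lower left (medians −0.71 and −0.91 in G2/M-phase cells), and interferon-response genes mostly in the upper right (median 0.53).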

How the data were processed

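Per the file headers, the authors counted UMIs with Cell Ranger 3.0.2 for C57BL/6 and 7.0.0 for BM only and BM + Spl, and the submitters' processing notes give mm10 and Seurat 4.0.2. The deposited counts per gene and cell were used without normalization, restricted to 30406 identifiers present in every library. The libraries held 60600408, 35041153 and 43383960 UMIs in 4613, 5986 and 5573 cells. BM only and BM + Spl shared 43 barcodes, 0 of them in G2/M-phase cells. For both BMT libraries the study states fewer cells than its own filter, used here, leaves.

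The members, gene lists and comparisons were chosen with earlier results of these data known. Lists were written by role from general knowledge. Genes were named from the rule, from the lists at 50 UMIs or more, and as the 10 largest differences in each direction past 1.5-fold with at least 200 UMIs. T cell receptor segments were left out of those differences. Also named were the 10 genes with the largest ratio over non-cycling cells, the genes of the sort, and Cd3e for identity. Ratios of shares have Katz intervals, shares Clopper-Pearson intervals, CPM exact Poisson intervals and ratios of CPM exact conditional binomial intervals, all at 95%. UMIs of 1 cell are not independent, so true errors are larger. Doublets were kept, and the 6% of cells with the highest Scrublet scores were left out as an alternative. Calculations were tested on simulated data and used scanpy 1.11.5 for Scrublet, pandas 2.3.3, scipy 1.17.1 for the intervals, numpy 2.4.6 and Python 3.11.15. Alternatives changed the number of rule genes, the depth, the limits on cells, the cells compared and the filter on low counts. The thinned shares by leading list and at equal make-up were added after the values had been seen. Some genes of the lists were counted but are not reported here.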

Additional observations from a re-analysis of the deposited data

How the results depend on the processing

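No paired analysis was possible because each condition has 1 library, and for the same reason no library could be left out. Of the main results under 12 alternatives, 231 values stayed within their counting interval or within 1.5 times, 35 moved and 2 reversed. Of the ratios of 54 single genes, 456 stayed, 111 moved and 2 reversed. The cause of these changes was not tested. With at least 3 genes of the rule the G2/M-phase shares of C57BL/6, BM only and BM + Spl were 12.7%, 3.13% and 6.23%, with at least 5 genes 7.37%, 1.57% and 3.55%, and in cells thinned to 2700 UMIs 2.65%, 0.778% and 1.84%. The next values are for cells that met the rule after thinning, with V beta segments and gene levels taken from all their UMIs. Among them the share with an iNKT V beta segment was 96.8%, 61.3% and 69.2%, and the NKT2 list led in 43.6% of BM only G2/M-phase cells. Their median log2 ratio of BM + Spl over BM only was −1.87 for NKT1 (11 genes) and 0.0862 for respiratory chain genes. For NKT17 genes it was 0.90 over the 2 left, against −0.69 over 5 genes in the main comparison. In cells with an iNKT V beta segment only, the share was 14.4% in C57BL/6 and 6.38% in BM + Spl and its fold 2.92. The NKT2 list led there in 72.2% and 78.8% and the regulatory T cell list in 2.53% and 8.48% of BM only and BM + Spl cells. In these cells 328 genes were higher and 190 lower, against 245 and 315 in the main comparison, with 106 and 93 shared. The medians were −1.51 for NKT1 and −0.59 for immediate-early and heat-shock genes. Without cells that held Foxp3, Cd8a, Cd8b1, B cell or macrophage UMIs, 301 genes were higher and 195 lower, with 75 and 60 shared. The medians were −1.92 for NKT1 (8 genes), 0.0287 for NKT17 (2 genes) and −0.54 for immediate-early and heat-shock genes. There Ier3 stood at 0.12 and Nr4a1 at −0.0791, against −1.55 and 0.91. The median of immediate-early and heat-shock genes was −1.18 without the cells of highest Scrublet scores, −0.68 with at least 200 UMIs per gene, and −0.71 without cells that held 10 or more B cell or macrophage UMIs, an alternative added after the values had been seen. In that alternative B cell UMIs were counted over a part of the B cell list. With at least 200 UMIs per gene 44 genes were higher and 43 lower of 4101, and with at least 10 UMIs 801 and 1059 of 10898. Depth limited genes with few UMIs most, as 3 UMIs stood for 1.57 CPM in BM only and 0.738 CPM in BM + Spl.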
